A study of Mus musculus with 32 samples.

Results

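Bcl11b peaks at promoters that were called in only a pro-T-like line or only a group 2 innate lymphoid line numbered 3607 of the 39551 Bcl11b peaks in the lists of both lines. A peak was a member if HOMER had annotated it as promoter-TSS and if it overlapped no Bcl11b peak of the other line by as much as 1 bp. Scid.adh.2c2, a mouse pro-T-like line, held 2316 of the members among its 17874 Bcl11b peaks, and ILC2/b6, a mouse group 2 innate lymphoid cell (ILC2) line, held 1291 among its 21677. The 2 subgroups are called the Scid.adh.2c2-only and the ILC2/b6-only sites. Members were chosen by the presence of a Bcl11b peak in one list and its absence from the other, so every Bcl11b value below is a description and carries no test.

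Scid.adh.2c2 cells were grown without added cytokines and ILC2/b6 cells with 10 ng/ml each of IL-33, IL-7 and IL-2. For binding, each line was fixed with DSG and then formaldehyde and precipitated with antibodies against Bcl11b, GATA3, Runx1 or Runx3, with 2 libraries per antibody and line joined into 1 peak list. For RNA, each line was transduced with a CFP-marked vector carrying either a control guide (sgControl) or a guide against Bcl11b (sgBcl11b), with 2 libraries per guide and line. Each line is 1 cell line, the cytokines differ between the lines in every comparison, and the labels do not give the Cas9 source, the time after transduction or whether the 2 libraries came from separate cultures, and p-values therefore cover no more than the spread between libraries.

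Bcl11b is a zinc finger transcription factor that T-cell precursors switch on as they commit to the T lineage, and it is also needed for stable ILC2 identity. It binds DNA in company with other factors and recruits repressor complexes such as NuRD. Runx factors and GATA3 are DNA-binding regulators that T cells and ILC2 share, Runx proteins recognizing a core of TGTGGT and GATA3 a core of GATA. A promoter is the stretch around a transcription start site, where the general transcription machinery assembles.

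Promoter windows of 6 members are shown first. They are the first 3 of each subgroup, taken by site score and then by RNA change, among genes with 1 member site, 1 window in the RefSeq table and a peak centre inside that window. Each runs from 250 bases before to 50 after the start site, 5′ to 3′ on the gene's strand, from RefSeq on GRCm38.p6. Capitals mark 4 strings that were searched on both strands and of which none contains another. TGTGGT is the core of Runx motifs. AGATAA is a GATA motif. CCGGAAG is an Ets motif common at promoters. GGGCGG is the GC box. The Scid.adh.2c2-only sites shown are those of Fcer1g, the shared signal chain of Fc receptors (chr1:171234300-171234599, minus strand), Cxcr6, a chemokine receptor (chr9:123806227-123806526, plus strand), and Rag1, a subunit of the antigen receptor recombinase (chr2:101649483-101649782, minus strand).
Fcer1g: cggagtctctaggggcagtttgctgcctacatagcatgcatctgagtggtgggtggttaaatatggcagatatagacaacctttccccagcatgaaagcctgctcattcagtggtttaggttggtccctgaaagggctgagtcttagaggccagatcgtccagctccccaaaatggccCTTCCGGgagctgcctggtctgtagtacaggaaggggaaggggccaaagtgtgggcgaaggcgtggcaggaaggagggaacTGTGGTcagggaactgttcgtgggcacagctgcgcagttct
Cxcr6: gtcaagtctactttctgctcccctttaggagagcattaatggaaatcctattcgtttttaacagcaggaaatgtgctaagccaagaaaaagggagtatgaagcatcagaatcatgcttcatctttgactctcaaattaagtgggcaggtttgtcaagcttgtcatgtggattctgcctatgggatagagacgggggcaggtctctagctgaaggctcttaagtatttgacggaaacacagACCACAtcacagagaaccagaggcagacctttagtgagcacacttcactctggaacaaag
Rag1: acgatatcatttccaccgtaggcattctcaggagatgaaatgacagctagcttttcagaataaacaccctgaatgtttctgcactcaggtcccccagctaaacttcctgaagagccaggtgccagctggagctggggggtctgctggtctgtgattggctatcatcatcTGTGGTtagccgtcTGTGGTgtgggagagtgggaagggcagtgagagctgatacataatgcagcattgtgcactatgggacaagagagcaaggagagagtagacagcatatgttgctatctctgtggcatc
The ILC2/b6-only sites shown are those of Kctd11, a BTB-domain adaptor of ubiquitin ligases (chr11:69880936-69881235, minus strand), Capg, an actin capping protein (chr6:72549397-72549696, plus strand), and P2rx1, an ATP-gated ion channel (chr11:72998895-72999194, plus strand).
Kctd11: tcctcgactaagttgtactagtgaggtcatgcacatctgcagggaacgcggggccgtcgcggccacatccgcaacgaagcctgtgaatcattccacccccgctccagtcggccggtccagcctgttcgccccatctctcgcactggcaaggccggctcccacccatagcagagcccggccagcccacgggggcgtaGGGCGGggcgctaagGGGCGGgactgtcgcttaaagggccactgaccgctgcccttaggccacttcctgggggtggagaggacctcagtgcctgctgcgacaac
Capg: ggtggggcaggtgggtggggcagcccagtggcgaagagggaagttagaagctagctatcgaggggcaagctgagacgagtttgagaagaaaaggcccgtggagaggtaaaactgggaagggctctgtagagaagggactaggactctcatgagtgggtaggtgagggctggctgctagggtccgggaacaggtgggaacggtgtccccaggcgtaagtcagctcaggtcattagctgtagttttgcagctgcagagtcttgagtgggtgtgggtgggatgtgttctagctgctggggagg
P2rx1: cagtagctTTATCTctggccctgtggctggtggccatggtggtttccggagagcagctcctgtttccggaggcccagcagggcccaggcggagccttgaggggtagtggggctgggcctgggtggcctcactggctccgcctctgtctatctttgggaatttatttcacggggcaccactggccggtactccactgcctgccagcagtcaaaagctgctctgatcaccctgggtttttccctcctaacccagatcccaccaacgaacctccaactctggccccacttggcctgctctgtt
The peak centres lay 65, 21 and 52 bp upstream of the start site for Fcer1g, Cxcr6 and Rag1, and 104, 105 and 208 bp upstream for Kctd11, Capg and P2rx1, as annotated on mm9. The Scid.adh.2c2-only windows of Fcer1g and Cxcr6 each held 1 TGTGGT and that of Rag1 held 2, and Fcer1g also held 1 CCGGAAG. Kctd11 held 2 GGGCGG, P2rx1 held 1 AGATAA, and Capg held none of the 4 strings. Kctd11 and Capg had Runx1 and Runx3 peaks at the site although TGTGGT is not in these windows.

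The same strings were counted over genes with 1 promoter window in the table whose member peak centre lay in that window. Members, like shared sites, were richer in GC than promoters at large, and they held the Ets string less often than shared sites did. TGTGGT was in 11.4% of 1001 Scid.adh.2c2-only windows and 19.5% of 365 ILC2/b6-only windows, against 17.1% of 22862 windows of genes with 1 window. Among windows of shared sites, 13.4% in the Scid.adh.2c2 list and 13.2% in the ILC2/b6 list held it. AGATAA was in 4.9% of Scid.adh.2c2-only and 4.66% of ILC2/b6-only windows, against 4.65% and 4.84% for shared sites and 11.5% for all windows. It was more frequent where the member also carried a GATA3 peak of its own line, in 21.1% of 38 Scid.adh.2c2-only and 17.0% of 47 ILC2/b6-only windows. Those 47 windows had a median GC content of 54.0%, against 62.7% for all ILC2/b6-only windows, and those 38 had 61.7%. The part of base composition in these shares was not tested. TGTGGT was in 19.4% of 325 ILC2/b6-only windows with an own-line Runx peak and in 20.0% of the 40 without. For Scid.adh.2c2-only windows the shares were 12.5% of 849 and 5.26% of 152. The longer string TGTGGTT had 7.69% and 2.5% in the ILC2/b6-only split, and 3.18% and 3.29% in the Scid.adh.2c2-only split.

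CCGGAAG, the core bound by Ets factors, was in 19.7% of Scid.adh.2c2-only and 18.6% of ILC2/b6-only windows, above the 9.12% of all windows and below the 33.9% and 34.9% of shared sites in the Scid.adh.2c2 and ILC2/b6 lists. GGGCGG, the box bound by Sp1-type factors, was in 74.1% and 58.9% of the Scid.adh.2c2-only and ILC2/b6-only windows, against 71.9% and 70.6% for shared sites and 35.2% for all windows. The TGACCA string known for the Bcl11 family was in 11.2% and 15.3% of members and in 13.7% of all windows. The median GC content was 61.7% in Scid.adh.2c2-only and 62.7% in ILC2/b6-only windows, against 62.7% and 63.0% for shared sites and 52.3% for all windows. The median number of CG steps was 22 in both subgroups, against 25 for shared sites of either list and 7 for all windows. These shares describe letters in a window and no site was tested for binding.

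Member sites were weaker and lay further from the start site than promoter sites called in both lines. The authors' peak score, comparable only within a list, had a median of 23.1 at Scid.adh.2c2-only sites and 34.9 at the 4090 shared promoter sites of the same list. At ILC2/b6-only sites it was 24.0, against 29.6 at the 3787 shared sites. Of the Scid.adh.2c2-only sites 32.1% (744 of 2316) and of the ILC2/b6-only sites 40.7% (526 of 1291) were at or above the median of their own list. The lowest score was 15.1 in the Scid.adh.2c2 list and 15 in the ILC2/b6 list. Most members were thus below the median of their list, and a site just under the calling threshold in the other line counts as absent there.

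Within 100 bp of the start site lay 55.6% (95% Wilson interval 53.6 to 57.6) of the Scid.adh.2c2-only and 47.6% (44.9 to 50.4) of the ILC2/b6-only sites, against 66.3% and 63.6% of the shared sites in the respective lists. The stretch 300 to 1000 bp upstream held 14.6% (13.2 to 16.1) and 22.9% (20.6 to 25.2) of members, against 7.92% and 9.61% of shared sites. ILC2/b6-only sites were thus the most often set back from the start site of these 4 sets. Such intervals cover counting error alone, since each list came from pooled libraries.

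**Figure D1:**
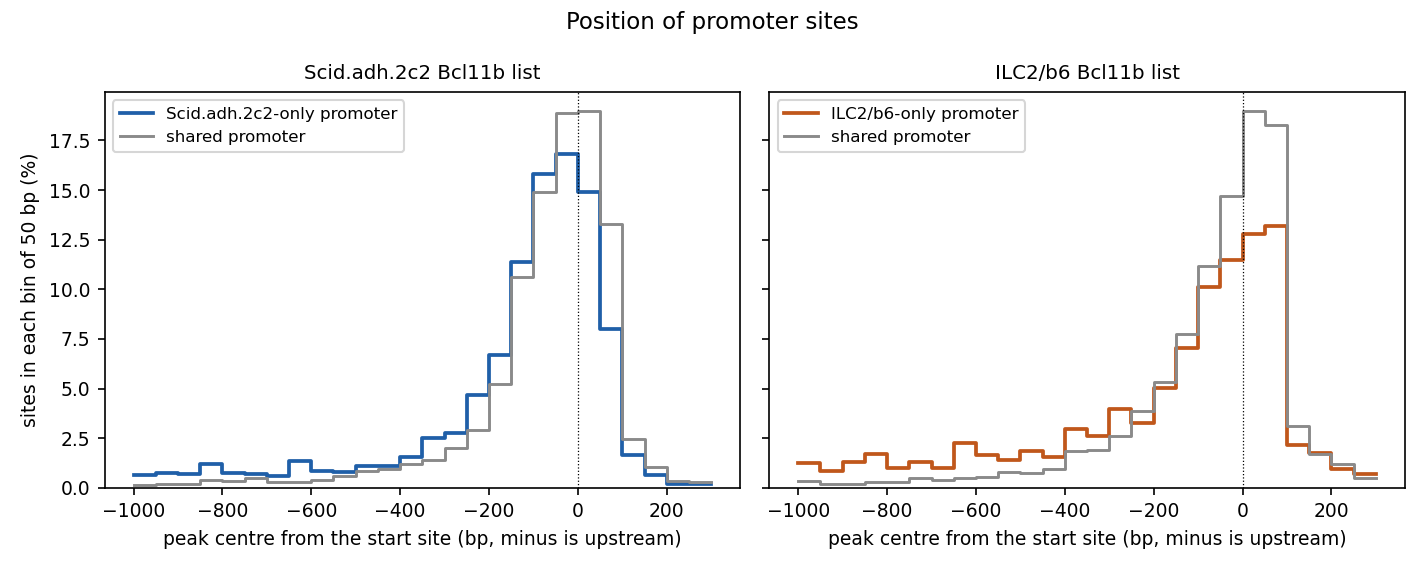
The share of sites (%, vertical axis) is drawn in bins of 50 bp by distance of the peak centre from the annotated start site (bp, horizontal axis) for member and shared promoter sites of each line. The member lines are lower at the start site and higher 300 to 1000 bp upstream, where 22.9% of the ILC2/b6-only sites lay.

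Many members lay beside rather than far from a Bcl11b peak of the other line. A Bcl11b peak of the other line was within 1 kb of 34.9% (809) of the Scid.adh.2c2-only and 28.4% (366) of the ILC2/b6-only sites. At 198 genes both lines had a member site of their own, with the 2 centres a median of 376 bp apart (interquartile range 310 to 546), and the ILC2/b6 peak was the further upstream at 100 of them (50.5%). The peaks just inside the rule were those of Xpot, a tRNA exporter, whose peaks in the 2 lines abut with 0 bp between them at scores of 20.9 and 19.1. Cdr2 followed with a gap of 1 bp and scores of 22.5 and 18.9, and so did Rpap3 (20.4) in Scid.adh.2c2 and Kat5 (21.5) in ILC2/b6. Just outside the rule was a promoter site of Bcl11b itself, at chr12:109242303-109242539 (mm9) in Scid.adh.2c2 with a score of 45.3 and overlapping the ILC2/b6 peak (22.5) by 1 bp. 1810013L24Rik, with 1 bp of overlap and scores of 27.6 and 28.3, and E2f8, with 2 bp and scores of 26.9 and 16, were also just outside.

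The strongest members lay at a dynein light chain family in Scid.adh.2c2 and at a cytokine feedback inhibitor in ILC2/b6. In Scid.adh.2c2 the 5 highest scores were 268.9, 268.9, 244.6 and 244.2 at 4 sites assigned to Dynlt1f and 205.8 at Dynlt1b, all on chromosome 17, where the first site was chr17:6600671-6600907 (mm9). Near-identical copies of the gene lie there, so how reads were divided among them is uncertain for both the peaks and the RNA. In ILC2/b6 the highest score was 203.0 at Cish (chr9:107198389-107198643), a feedback inhibitor of cytokine signalling, followed by Tmbim4 (174.5), Kctd11 (166.5), Capg (147.9) and D17H6S56E-5 (145.9). Cish had no GATA3, Runx1 or Runx3 peak in either line.

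Runx1 or Runx3 accompanied most members in their own line and GATA3 few. A Runx peak overlapped 77.3% (1791 of 2316, 75.6 to 79.0) of the Scid.adh.2c2-only and 78.5% (1013 of 1291, 76.1 to 80.6) of the ILC2/b6-only sites, against 86.8% and 91.4% of the shared promoter sites. Runx3 was the more frequent of the 2 proteins, at 72.0% of Scid.adh.2c2-only and 74.8% of ILC2/b6-only sites, with Runx1 at 62.5% and 50.3%. GATA3 was at 4.32% (3.56 to 5.22) of the Scid.adh.2c2-only and 16.3% (14.4 to 18.5) of the ILC2/b6-only sites. For GATA3 the shared promoter sites had 5.18% and 7.63%. Sites outside promoters that overlapped no Bcl11b peak of the other line had 26.3% and 45.6%.

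GATA3 was more frequent at ILC2/b6-only sites set back from the start site than at those near it. In the stretch 300 to 1000 bp upstream 30.8% (91 of 295, 25.9 to 36.3) of these sites held GATA3, and within 100 bp 11.5% (71 of 615, 9.25 to 14.3) did. The Scid.adh.2c2-only sites had 6.21% (21 of 338) and 3.65% (47 of 1288) in the same 2 stretches. All 3 partners met at 10.9% of ILC2/b6-only and 2.63% of Scid.adh.2c2-only sites.

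The subgroups parted in what the Runx peaks did in the other line, where Bcl11b was not called. Among Scid.adh.2c2-only sites with an own-line Runx peak, 81.1% (1452 of 1791, 79.2 to 82.8) also had a Runx peak in ILC2/b6. Among ILC2/b6-only sites with an own-line Runx peak, 21.0% (213 of 1013, 18.6 to 23.6) also had a Runx peak in Scid.adh.2c2. At shared promoter sites the same shares were 96.0% and 90.3%, and at line-restricted sites outside promoters 31.6% and 6.24%. The promoter sites restricted to Scid.adh.2c2 were thus mostly Runx-bound in both lines, and those restricted to ILC2/b6 mostly in ILC2/b6 alone.

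The lists differ in length, which bears on this contrast. Runx1 and Runx3 had 13664 and 20523 peaks in Scid.adh.2c2 and 26258 and 44938 in ILC2/b6. With the lists of both lines held to the same number of top-scoring peaks, the shares were 47.1% of 1791 and 25.5% of 685, so the gap narrowed and kept its direction. Among sites with no Bcl11b peak of the other line within 1 kb they were 82.6% and 14.3%. The part that antibody efficiency or depth had in the different list lengths was not tested.

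**Figure D2:**
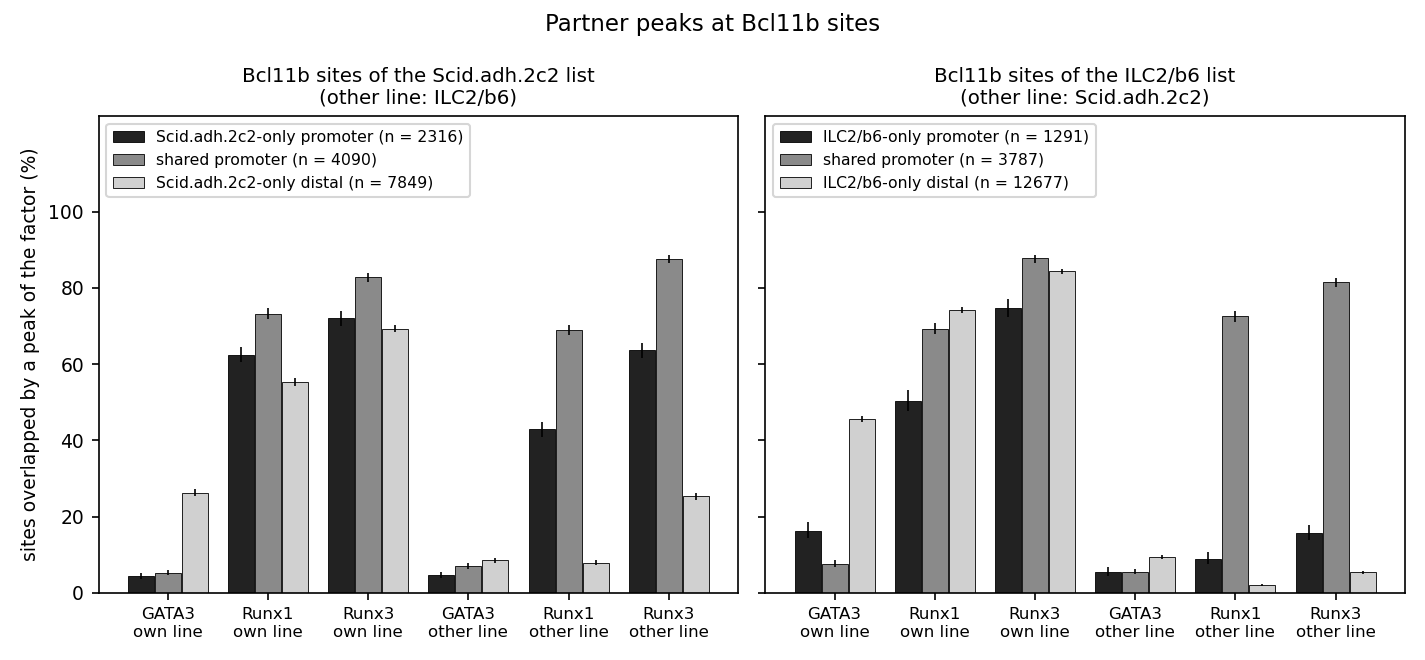
Bars show the share of Bcl11b sites (%, from 0) that overlap a GATA3, Runx1 or Runx3 peak of the own or the other line, by site class, with 95% Wilson intervals as error bars. The other-line Runx1 and Runx3 bars of the Scid.adh.2c2-only promoter sites stand at 42.9% and 63.7%, and those of the ILC2/b6-only promoter sites at 8.91% and 15.7%.

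The RNA of the factors differed between the lines as well. Gata3 was at 54.0 and 57.0 RPKM in the Scid.adh.2c2 controls and 146 and 151 in the ILC2/b6 controls. Runx1 was at 19.4 and 21.3 RPKM against 2.73 and 3.09, and Runx3 at 3.07 and 3.28 against 46.5 and 42.9. With the Bcl11b guide, Runx3 in Scid.adh.2c2 was at 18.0 and 18.2 RPKM, so the Runx makeup of that line differs between its guide groups. The tables of the 2 lines were normalized separately, so levels are set side by side here without a test.

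Genes of Scid.adh.2c2-only sites were mostly expressed in both lines, and genes of ILC2/b6-only sites often in ILC2/b6 alone. The Scid.adh.2c2-only sites named 2254 genes, of which 2231 were in the RNA tables, and the ILC2/b6-only sites 1260, of which 1247 were. A gene was counted as expressed in a line at 1 RPKM or more in both control libraries. Of the Scid.adh.2c2-only genes 80.9% were expressed in both lines, 9.86% in Scid.adh.2c2 alone, 1.61% in ILC2/b6 alone and 7.66% in neither. Of the ILC2/b6-only genes 45.7% were expressed in both, 34.3% in ILC2/b6 alone, 1.76% in Scid.adh.2c2 alone and 18.2% in neither. Genes with shared promoter sites had 91.1% in both, and all 24475 genes had 36.1%.

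The median ILC2/b6-only gene was at 0.634 RPKM in Scid.adh.2c2 and 7.35 in ILC2/b6, and the median Scid.adh.2c2-only gene at 11.7 and 8.39. Divided by Runx, the 777 ILC2/b6-only genes whose Runx peak was in ILC2/b6 alone had medians of 0.0885 and 5.85 RPKM, and 44.7% were expressed in ILC2/b6 alone. The 209 with a Runx peak in both lines had medians of 12.6 and 12.2 RPKM, and 86.1% were expressed in both. ILC2/b6-only genes thus had similar median levels in the 2 lines where Runx sat in both. Among the Scid.adh.2c2-only genes the 329 with Runx in the own line alone had 20.7% expressed in that line alone, and the 1425 with Runx in both lines 5.26%.

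**Figure D3:**
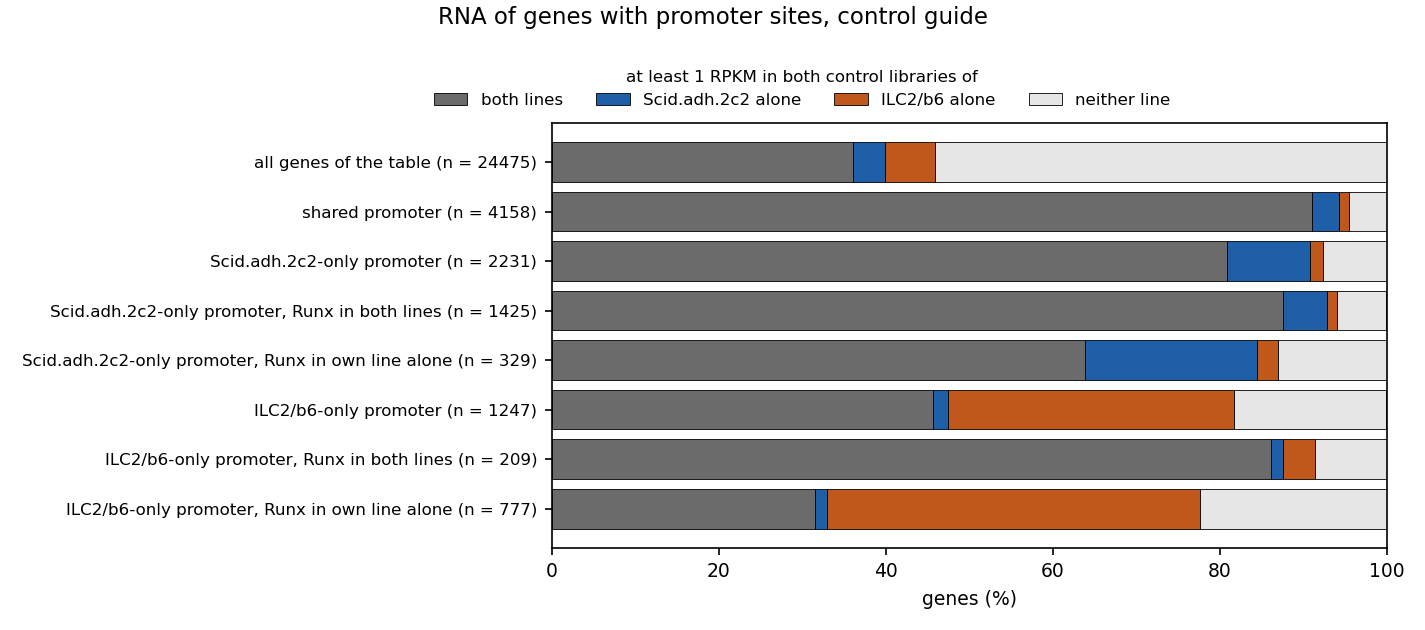
Stacked bars give the share of genes (%, from 0) expressed at 1 RPKM or more in both control libraries of both lines, of Scid.adh.2c2 alone, of ILC2/b6 alone or of neither, by site class and by where Runx was bound. Genes of ILC2/b6-only sites with Runx in ILC2/b6 alone have the largest ILC2/b6-alone part, 44.7%.

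The RNA libraries held 34.72 to 43.74 M reads, so 3 reads on a transcript of 2 kb came to 0.0343 to 0.0432 RPKM. Of the 10 pro-T markers 9 were at 1 RPKM or more in the Scid.adh.2c2 controls (Dntt was not) and 1, Lef1, in the ILC2/b6 controls. Of the 10 ILC2 markers 9 were in ILC2/b6 (Ptgdr2 was not) and 4 in Scid.adh.2c2. The pro-T sum in Scid.adh.2c2 was 859 to 876 RPKM in the controls and 626 to 632 with the guide. The ILC2 sum was 8160 to 8330 and then 5730 to 5880 RPKM in ILC2/b6, and 51.2 to 52.5 and then 46.7 to 47.4 in Scid.adh.2c2. Bcl11b RNA was at 47.0 and 49.5 RPKM in the Scid.adh.2c2 controls and 47.1 and 46.8 with the guide (log2 fold change -0.04, limma adjusted p = 0.455, or -0.17 with 0.00856 after median-centring and -0.11 with 0.046 after quantile normalization). In ILC2/b6 it was at 6.85 and 6.33 and then 7.04 and 7.24 RPKM (0.11, adjusted p = 0.278). A guide that cuts the gene need not lower its RNA, so these values do not check the guide labels. In Scid.adh.2c2 the summed level of 10 myeloid and mast cell markers was 24.4 to 27 RPKM in the controls (3 of 10 at 1 RPKM or more and 3 at 0) and 70.6 to 71.2 with the guide (4 of 10, 2 at 0). Most of that sum was Cpa3, a mast cell protease that itself has a Scid.adh.2c2-only promoter site, at 23.5 and 21.4 RPKM in the controls and 62.4 and 62.7 with the guide (log2 fold change 1.46, limma adjusted p = 7.31e-07). In ILC2/b6 the sum of 6 erythroid markers was 16.3 to 18.1 RPKM in the controls (1 of 6 at 1 RPKM or more, Hba-a1, and 1 at 0) and 28.0 with the guide (1 of 6, 1 at 0). The sum of 7 stroma markers there was 5.76 to 6.29 and then 11.2 to 13.0 RPKM (1 of 7 in both, Dcn, with 1 and then 2 at 0), while the myeloid sum was 22.3 to 22.5 and 21.8 to 22.4 RPKM. In Scid.adh.2c2 the B cell sum was 1.84 to 1.97 RPKM in the controls and 5.29 to 5.56 with the guide, the erythroid sum 1.35 to 1.81 and then 4.35 to 4.64, and the stroma sum 5.52 to 5.97 and then 1.33 to 1.46. In these bulk libraries fewer cells of a kind and less RNA per cell cannot be told apart, and the part of other cell types in the RNA results was not tested.

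Guide effects on member genes were read as log2 fold changes of RPKM + 0.5, Bcl11b guide over control, with limma in each line and Benjamini-Hochberg adjustment over all genes with at least 1 RPKM in 2 libraries. In Scid.adh.2c2 2058 of the 2231 Scid.adh.2c2-only genes passed this filter, and 711 rose and 512 fell at an adjusted p under 0.05, which is 59.4% called (34.5% higher, 24.9% lower). Over all 10221 genes tested 57.8% were called, 35.1% higher and 22.7% lower, so the share near member sites was close to the background. Their median log2 fold change was 0.03, against 0.05 for all genes. A gene under 1 RPKM in both controls can pass that filter only by being higher with the guide, and 26 of the 2058 were such genes. Large changes are therefore counted among genes at 1 RPKM or more in both control libraries. Of the 2024 such Scid.adh.2c2-only genes 84 (4.15%) rose at least 2-fold against 4.41% of all 9772, and 41 (2.03%) fell at least 2-fold against 1.76%.

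The balance of direction hung on the scaling. Centring each Scid.adh.2c2 library on its median moved the median change of all genes from 0.05 to -0.08, and the members then counted 469 higher and 842 lower, so the share of higher calls went from 58.1% to 35.8%, while quantile normalization gave 481 and 840. For all genes the same 2 scalings gave 2466 higher and 3934 lower, and 2443 and 3918. Leaving out Bcl11b guide library 2 gave 466 higher members, and leaving out guide library 1 or 2 gave 289 or 293 lower. Small changes near that shift have no direction that holds under every scaling.

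Subdivided by Runx, the 284 tested Scid.adh.2c2-only genes with Runx in the own line alone included 116 that rose and 84 that fell (70.4%). At least 2-fold lower were 21 (7.39%), against 1.68% of all genes tested, and at least 2-fold higher were 28 (9.86%), against 6.75%. The rises can include genes under 1 RPKM in both controls. Genes of the upper 50.0% of scores were called at 68.1% (280 higher and 173 lower of 665). Of the 88 with an own-line GATA3 peak 29 rose and 31 fell, and 9 (10.2%) fell and 4 (4.55%) rose at least 2-fold. No test of these subdivisions against the rest was run.

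In ILC2/b6 fewer genes were called at all, and ILC2/b6-only members were called more often than the background. Of the 1021 ILC2/b6-only genes tested 147 rose and 111 fell, 25.3% in all (14.4% higher, 10.9% lower), against 14.5% of all 10526 genes (8.32% higher, 6.21% lower). The median was 0.02, as for all genes. Among the 998 at 1 RPKM or more in both controls 142 rose and 111 fell, and 2 (0.2%) rose and 1 (0.1%) fell at least 2-fold, against 0.273% and 0.117% of all such genes, so the additional calls were small changes. With median-centred libraries the counts were 117 higher and 136 lower, and with quantile normalization 126 and 104. The share of higher calls fell from 57.0% to 46.2% under median-centring. Leaving out guide library 1 or 2 left 93 or 87 higher and 65 or 54 lower.

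The 608 tested ILC2/b6-only genes with Runx in ILC2/b6 alone included 101 that rose and 77 that fell (29.3%), while the 190 with Runx in both lines included 8 and 13 (11.1%). Members with an own-line GATA3 peak had 30 higher and 18 lower of 154 (31.2%), and those in the upper 50.0% of scores 83 and 59 of 444 (32.0%). Shared promoter sites had 11.6% called in ILC2/b6. The Scid.adh.2c2-only genes, measured in ILC2/b6 where their site was not called, had 133 higher and 107 lower of 1858 (12.9%), or 88 and 152 with median-centred libraries.

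The ILC2/b6-only genes were also measured in Scid.adh.2c2, where Bcl11b was not called at these promoters. There 644 of the 1247 passed the filter, 285 rose and 118 fell (62.6% called, 44.3% higher). Of the 644, 45 were under 1 RPKM in both controls, Arg1, Lif and Txk among them, and 44 of these rose. Among the 592 at 1 RPKM or more in both controls 52 (8.78%) rose at least 2-fold, against 4.41% of all such genes, 4.15% of Scid.adh.2c2-only genes and 3.6% of genes with shared sites. At least 2-fold lower were 4 (0.676%) against 1.76%. With no filter on low values the rises were 100 of 1130 (8.85%), against 753 of 16950 genes (4.44%), and with the filter of 2 libraries 89 of 644 (13.8%) against 6.75%. Median-centring brought the calls to 228 higher and 212 lower (51.8% higher, from 70.7%), so the lean toward rises among small changes depended on the scaling. Within the 644 the count of 2-fold rises was 78 with median-centring and 63 with quantile normalization. The 89 included 36 of the 45 genes under 1 RPKM in both controls, which the filter admits only if they are higher with the guide. The other scalings were not run for the 592 alone.

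The level in the controls was held in ranges among the genes at 1 RPKM or more in both controls. With a control mean under 2 RPKM 19.1% of 47 ILC2/b6-only genes rose at least 2-fold against 12.9% of all 591. Between 2 and 10 RPKM the shares were 14.4% of 215 and 6.1% of 3524, and at 10 RPKM or more 3.64% of 330 and 2.47% of 5657. With Runx in ILC2/b6 alone 33 of 256 (12.9%) rose at least 2-fold, and with Runx in both lines 9 of 183 (4.92%) did. None of these differences between gene sets was tested.

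**Figure D4:**
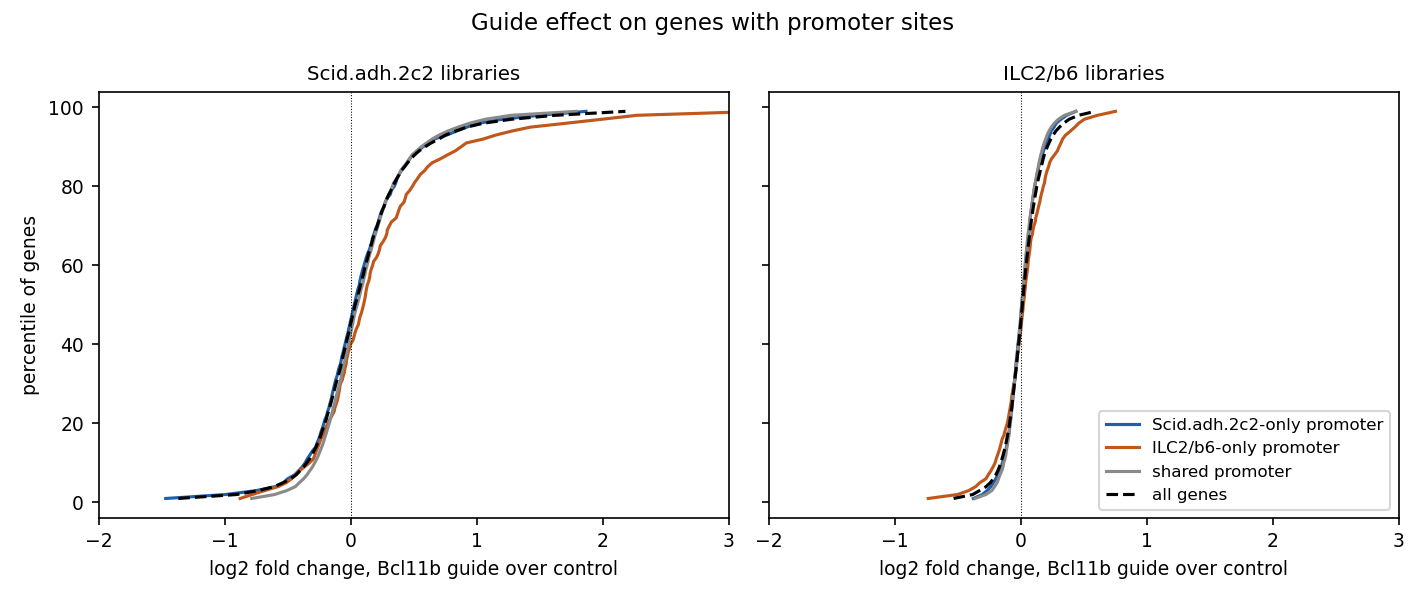
Lines give, from the 1st to the 99th percentile of the genes at 1 RPKM or more in both control libraries (vertical axis), the log2 fold change of the Bcl11b guide over control (horizontal axis, drawn from -2 to 3) for both member subgroups, shared sites and all such genes, in each line. In Scid.adh.2c2 the curve of the ILC2/b6-only genes has the longest right tail, with 8.78% called and at least 2-fold higher.

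The difference of the guide effect between the lines (ILC2/b6 minus Scid.adh.2c2, in 1 limma model over 8 libraries) was called at an adjusted p under 0.05 for 48.6% of 2079 Scid.adh.2c2-only genes, 432 above 0 and 578 below. It was called for 46.4% of 1044 ILC2/b6-only genes, 166 above and 318 below. Of all 11600 genes 45.1% were called, so neither subgroup was far from the background.

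Among Scid.adh.2c2-only genes the largest rises were immune receptor and interferon-inducible genes. Fcer1g had 3.09 and 2.43 RPKM in the controls and 47.3 and 51.4 with the guide, a log2 fold change of 3.94 (SE 0.10, limma adjusted p = 1.71e-07). In ILC2/b6 it had 0.822 and 0.437 and then 2.54 and 3.29 RPKM, a rise of 1.61 (adjusted p = 0.0018). Both of those controls were under 1 RPKM, so it passed the filter in ILC2/b6 through the guide libraries alone. Its site, at chr1:173164427-173164663 (mm9), held GATA3, Runx1 and Runx3 in Scid.adh.2c2 and none of them in ILC2/b6. Cxcr6, the chemokine receptor, went from 0.508 and 0.595 to 11.1 and 11.1 RPKM (3.47, adjusted p = 1.71e-07), and passed the filter through the guide libraries alone. In ILC2/b6 Cxcr6 was already at 36.1 and 38.9 RPKM and had 40.1 and 36.0 with the guide (0.02, adjusted p = 0.856). Fcer1g is also a gene of mast cells and macrophages, whose marker sum was higher in the guide libraries as given above, and that part was not tested.

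Gbp10 and Gbp11, interferon-inducible GTPases whose relatives are similar in sequence, and Nod1, a sensor of bacterial cell wall, completed the 5 largest rises. Gbp10 had 29.9 and 26.6 RPKM in the controls and 283.7 and 280.7 with the guide (3.30, adjusted p = 3.83e-08). Gbp11 had 6.97 and 6.79 and then 65.7 and 65.4 RPKM (3.16, adjusted p = 2.33e-08). Nod1 had 0.992 and 1.14 and then 10.7 and 10.9 RPKM (2.86, adjusted p = 3.1e-07). In ILC2/b6 Gbp10 (-0.12, adjusted p = 0.262) and Gbp11 (-0.14, adjusted p = 0.175) were not called and Nod1, at 0.014 to 0.035 RPKM, was not tested. The differences between the lines were -3.42, -3.30 and -2.82.

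All 11 interferon response genes with a Scid.adh.2c2-only site rose in Scid.adh.2c2, under each of the 3 scalings, with a median log2 fold change of 1.59. All 42 genes of the list rose, with and without such a site, and no comparison of size between them was run. Sp100, a nuclear body protein, had 8.45 and 7.47 RPKM in the controls and 51.4 and 51.0 with the guide (2.61, adjusted p = 1.49e-07). Ifit2, an interferon-induced antiviral protein, had 6.97 and 7.66 and then 39.2 and 38.3 RPKM (2.33, adjusted p = 1.71e-07). H2-D1, a classical MHC class I heavy chain, had 14.6 and 12.6 and then 64.5 and 65.8 RPKM (2.22, adjusted p = 3.4e-07). B2m, the light chain of MHC class I, had 266.3 and 240.4 and then 960.4 and 945.3 RPKM (1.91, adjusted p = 3.64e-07). Mx1, Mx2, Bst2, Ifi27, Eif2ak2, Psmb8 and Trim21 rose by 0.82 to 1.61. In ILC2/b6 8 of the 11 were tested, of which 4 rose and 1 fell, and under median-centring 2 and 1.

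The largest fall was that of a recombinase gene. Rag1, a subunit of the recombinase that assembles antigen receptor genes, had 64.1 and 75.7 RPKM in the controls and 11.7 and 11 with the guide (-2.57, adjusted p = 3.48e-07), and its promoter site, whose window is shown above, held GATA3, Runx1 and Runx3 in Scid.adh.2c2 alone. The other 2 pro-T markers with a member site, Cd3g and Themis, rose, and of the whole marker list 3 rose and 5 fell among 9 tested. Arsi, a sulfatase gene, had 43.8 and 45.5 and then 7.38 and 7.24 RPKM (-2.53, adjusted p = 5.84e-08). Tnfrsf8, which encodes CD30, had 23.5 and 25.8 and then 4.82 and 5.00 RPKM (-2.21, adjusted p = 3.04e-07). Tnfrsf8 was higher in ILC2/b6, at 247.9 and 223.1 and then 221.6 and 216.6 RPKM, without a call (-0.10, adjusted p = 0.239, or 0.0134 without control library 2). Nectin1, an adhesion molecule, and Arpp21 fell by 2.17 and 2.16. Rag1, Arsi, Nectin1 and Arpp21 were near 0 in all ILC2/b6 libraries, between 0 and 0.231 RPKM.

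Lymphoid transcription factors with a Scid.adh.2c2-only site were called in both directions, 4 higher and 5 lower of 9, under each of the 3 scalings. Myb, a progenitor transcription factor, had 76.0 and 82.0 RPKM in the controls and 26.6 and 25.6 with the guide (-1.58, adjusted p = 3.75e-07). Dtx1, a Notch target and Notch pathway ubiquitin ligase, had 106.5 and 120.0 and then 33.1 and 32.4 RPKM (-1.77, adjusted p = 5.15e-07), with no partner peak at its site. Rora, a factor that ILC2 development needs, had 6.37 and 6.83 and then 20.8 and 20.1 RPKM (1.56, adjusted p = 1.08e-06). Rel, an NF-kappaB subunit, rose by 1.54 and Nfatc2 by 0.76. Of the whole list 28 rose and 15 fell among 47 tested.

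Of the T-cell receptor and antigen receptor signalling genes 6 had such a site, and 4 rose and 2 fell, or 2 and 2 with median-centred libraries, against 15 and 7 of 28 tested in the whole list. Cd28, the costimulatory receptor, had 11.4 and 10.9 RPKM in the controls and 28.7 and 27.4 with the guide (1.30, adjusted p = 1.21e-06). Themis, a thymocyte signalling protein, rose by 0.93 from 14.5 and 14.1 to 28.4 and 27 RPKM. Lck, the kinase that starts T-cell receptor signalling, had 133.6 and 136.3 and then 77.7 and 79.5 RPKM (-0.78, adjusted p = 3.09e-06). Cd3g, a CD3 chain, had 136.4 and 129.9 and then 157.9 and 161.2 RPKM (0.26, adjusted p = 0.00146), a call lost with median-centring (0.13, adjusted p = 0.104). Loss and gain were thus mixed within the same receptor pathway.

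Of 8 cytokine receptor and signalling genes with a Scid.adh.2c2-only site 6 rose and 0 fell, or 4 and 0 under both other scalings. The whole list had 19 higher and 6 lower of 33 tested. Of 4 NK and innate effector genes 3 rose and 1 fell, against 15 and 1 of 17 in the whole list. Jak2, a cytokine receptor kinase with member sites in both lines, had 6.57 and 7.05 RPKM in the controls and 16.9 and 15.9 with the guide (1.21, adjusted p = 5.37e-06), and Jak1 rose by 0.75. Gzma, a granzyme, had 209.4 and 197.6 and then 100.4 and 104.5 RPKM (-0.99, adjusted p = 2.4e-06), and it fell in ILC2/b6 also, from 801.5 and 800.8 to 631.8 and 676.4 RPKM (-0.29, adjusted p = 0.00516), a call lost without the expression filter (adjusted p = 0.0566). Tnfsf10, which encodes the death ligand TRAIL, had 3.44 and 3.48 and then 14.2 and 14.3 RPKM (1.90, adjusted p = 5.69e-07). Pim1, a kinase induced by cytokines, rose by 0.69 in Scid.adh.2c2 and fell by 0.34 in ILC2/b6 (adjusted p = 0.0046), with a difference between the lines of -1.04 (adjusted p = 2.26e-05).

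Partner genes among these members changed little. Gata3 itself had a Scid.adh.2c2-only promoter site and went from 54.0 and 57.0 to 63.1 and 66.2 RPKM in Scid.adh.2c2 (0.22, adjusted p = 0.00506), a call lost with median-centring (0.09, adjusted p = 0.142) and without guide library 2 (0.19, adjusted p = 0.0671). Rnf2, a Polycomb ubiquitin ligase, rose by 0.30, or by 0.16 with median-centring. Ring1, its relative (0.17, adjusted p = 0.0523), and Smarca4, the BAF remodeller ATPase (0.04, adjusted p = 0.463), were not called. Ring1 was called in the joint fit (0.0308) and without control library 1 (0.0296) or 2 (0.0358), and Smarca4 without control library 2 (0.0429).

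Housekeeping lists held Scid.adh.2c2-only sites at 16.1% to 24.5% of their genes, where 2058 of all 10221 tested genes (20.1%) had one. Cytosolic ribosomal proteins contributed 14 of 85 genes (16.5%), of which 0 rose and 9 fell (median -0.21), with 0 and 52 of 80 tested in the whole list. Under quantile normalization 1 rose and 5 fell. Mitochondrial ribosomal proteins contributed 13 of 78 (16.7%), with 1 higher and 6 lower, or 0 and 11 with median-centring, and the whole list had 2 and 33 of 78. Respiratory chain subunits contributed 15 of 93 (16.1%), with 2 higher and 6 lower, or 0 and 10 with median-centring, and the whole list had 5 and 35 of 86. Proteasome subunits contributed 12 of 49 (24.5%), with 4 higher and 1 lower, or 2 and 3 with median-centring, and the whole list had 16 and 8 of 47. tRNA synthetases contributed 8 of 34 (23.5%), with 2 higher and 3 lower, or 1 and 5 with median-centring, and the whole list had 6 and 10 of 34. ILC2/b6-only sites fell on 2, 4, 4, 2 and 1 genes of the same 5 lists. The KRAB-rich Zfp zinc finger family contributed 58 of 390 genes to the Scid.adh.2c2-only and 20 to the ILC2/b6-only sites, and 6 of the 58 rose and 7 fell in Scid.adh.2c2, or 4 and 15 with median-centring, against 56 and 27 of 257 in the whole family.

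The strongest ILC2/b6-only sites sat at genes with small guide effects in ILC2/b6. Cish had 98.6 and 101.8 RPKM in the controls and 88.7 and 90.8 with the guide (-0.16, adjusted p = 0.0299), a call lost without guide library 1 (adjusted p = 0.208) or 2 (0.12), without the expression filter (0.0744), with quantile normalization (0.0893) and in the joint fit (0.109). Capg had 339.6 and 326.7 and then 289.7 and 291.4 RPKM (-0.20, adjusted p = 0.0125), also lost without guide library 1 (0.0874) or 2 (0.0767), without the expression filter (0.0604) and in the joint fit (0.102). Tmbim4 went from 103.9 and 103.4 to 117.4 and 116.3 RPKM (0.17, adjusted p = 0.0158), lost without guide library 1 (0.128) or 2 (0.103) and in the joint fit (0.272). Kctd11 rose from 5.07 and 4.95 to 7.24 and 7.32 RPKM (0.50, adjusted p = 0.00182). In Scid.adh.2c2 Cish and Tmbim4 were between 0 and 0.093 RPKM and Capg between 0.21 and 0.503. The high RNA of Cish, Tmbim4 and Capg was thus seen in the line with the site. D17H6S56E-5, also among the 5 highest scores, was expressed in the Scid.adh.2c2 controls too, as given below.

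**Figure D5:**
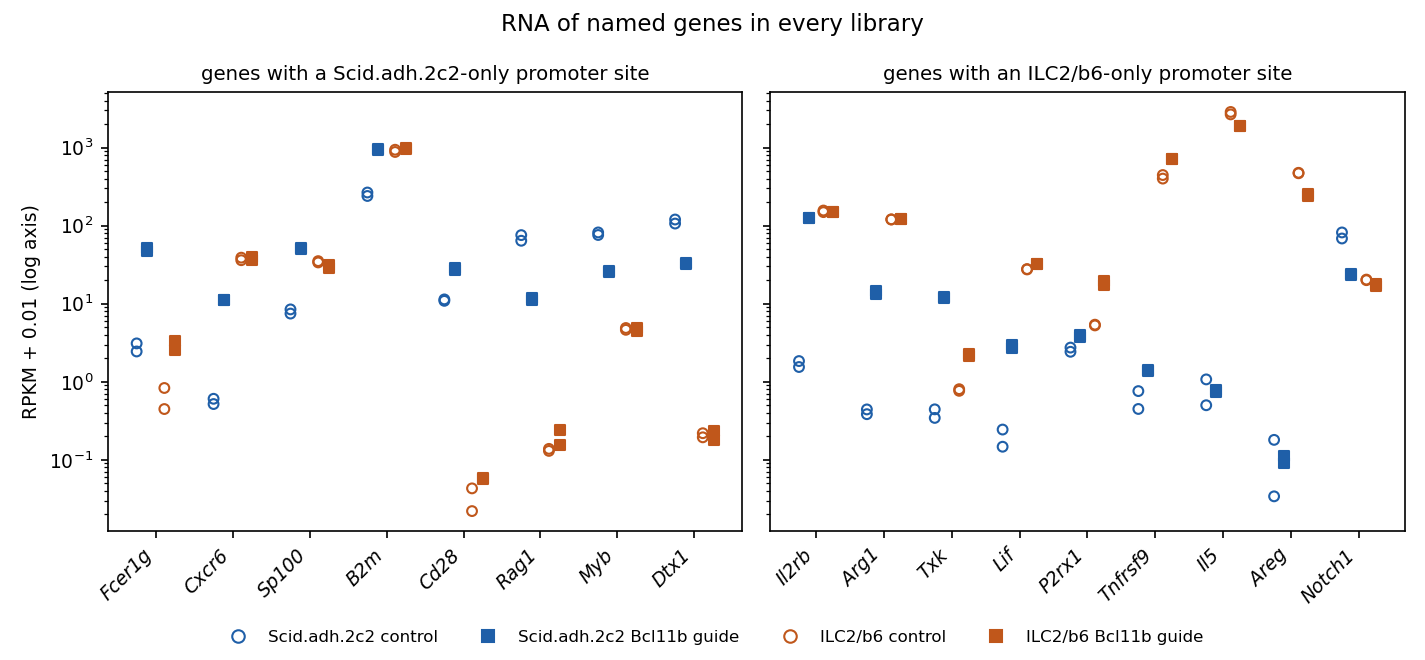
Points give the RPKM of each library (log axis, with a constant of 0.01 RPKM added) for chosen genes of Scid.adh.2c2-only and ILC2/b6-only sites, in control and Bcl11b guide libraries of both lines. Il2rb, Arg1 and Txk, with ILC2/b6-only sites, rise in the Scid.adh.2c2 guide libraries, while Rag1, Myb and Dtx1, with Scid.adh.2c2-only sites, fall there.

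The largest rises in ILC2/b6 were modest, and Pga5, Sh2d1b1 and Txk among them were under 1 RPKM in the controls and passed the filter through the guide libraries alone. P2rx1 had 5.38 and 5.26 RPKM in the controls and 17.6 and 19.4 with the guide (1.71, adjusted p = 1.7e-05), at a site with GATA3, Runx1 and Runx3 in ILC2/b6 alone. Pga5, a pepsinogen gene, had 0.343 and 0.506 and then 2.61 and 3.15 RPKM (1.87, adjusted p = 0.000271) and was listed at 0 in all Scid.adh.2c2 libraries. Fndc3a had 28.2 and 34.7 and then 68.6 and 72.5 RPKM (1.16, adjusted p = 0.000363). Sh2d1b1, an adaptor of SLAM-family receptors, had 0.137 and 0.112 and then 1.32 and 1.32 RPKM, a log2 fold change of 1.54, or 2.66 with a pseudocount of 0.1. Txk, a Tec-family kinase, had 0.793 and 0.755 and then 2.26 and 2.14 RPKM (1.08, adjusted p = 0.000664). In Scid.adh.2c2 Txk rose further, from 0.334 and 0.433 to 12.2 and 11.9 RPKM (3.83, adjusted p = 1.63e-07).

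The largest falls in ILC2/b6 included secreted ILC2 products. Areg, the growth factor amphiregulin, had 476.3 and 469.9 RPKM in the controls and 243.0 and 254.2 with the guide (-0.93, adjusted p = 2.08e-05). Tff1, a trefoil peptide, had 157.7 and 132.7 and then 76.0 and 67.3 RPKM (-1.01, adjusted p = 0.000644). Zpbp2 fell by 0.98 from 4.35 and 3.79 to 1.66 and 1.97 RPKM. Cxcl2, a neutrophil chemokine (-0.86, adjusted p = 0.0165), and Tubb3, a beta-tubulin (-0.82, adjusted p = 0.00999), were lost without the expression filter (adjusted p = 0.107 and 0.0852).

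Of the 35 ILC2 identity and type 2 genes 8 had an ILC2/b6-only site, and 2 rose and 3 fell in ILC2/b6 under each of the 3 scalings. Il5, the eosinophil cytokine that ILC2 secrete, had 2671 and 2869 RPKM in the controls and 1881 and 1874 with the guide (-0.56, adjusted p = 0.000518), a call lost in the joint fit of 8 libraries (adjusted p = 0.0591). Under quantile normalization the change of Il5 was -0.34. Pparg, a lipid-sensing nuclear receptor, fell by 0.41 from 13.2 and 13.3 to 9.97 and 9.64 RPKM (adjusted p = 0.00207). Klrg1, an inhibitory receptor of mature ILC2, had 133.8 and 132.8 and then 151.4 and 151.0 RPKM (0.18, adjusted p = 0.0124), a call lost in the joint fit (0.0932) and without guide library 1 (0.0977) or 2 (0.0949). Lif, a cytokine of the IL-6 family, rose by 0.24 (a call lost in the joint fit, adjusted p = 0.0786), while Arg1, the arginine-degrading enzyme, had 120.6 and 119.9 and then 121.3 and 121.4 RPKM (0.01, adjusted p = 0.81), and Ccr8, a chemokine receptor, had a change of -0.04 (adjusted p = 0.453). The whole list had 3 higher and 8 lower of 30 tested.

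Effector and cytokine receptor genes with ILC2/b6-only sites included rises in both lines. Of 5 NK and innate effector genes 3 rose and 0 fell in ILC2/b6 under each scaling, against 6 and 1 of 14 in the whole list. Il18rap, a chain of the IL-18 receptor, had 29.3 and 33.8 RPKM in the controls and 43.2 and 44.7 with the guide (0.48, adjusted p = 0.00438, or 0.0521 without the expression filter). Prf1, which encodes perforin, had 9.33 and 8.79 and then 12.2 and 11.9 RPKM (0.39, adjusted p = 0.00403). Gzmb, a granzyme, had 4736 and 4910 and then 4901 and 5104 RPKM, without a call (0.05, adjusted p = 0.479). Tnfrsf9, the costimulatory receptor 4-1BB, had the highest score of the listed genes after Cish (125.1) and went from 401.5 and 446.0 to 711.7 and 714.0 RPKM (0.75, adjusted p = 0.000271). Of 10 cytokine receptor and signalling genes 3 rose and 2 fell, or 2 and 2 with median-centring, against 5 and 8 of 39 in the whole list.

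Several ILC2 and effector genes that barely moved in ILC2/b6 rose in Scid.adh.2c2, where the promoter carried no called Bcl11b site. Of 4 ILC2 identity and type 2 genes with an ILC2/b6-only site tested there, 3 rose and 1 fell, against 12 and 7 of 20 in the whole list. Arg1 and Lif, among those that rose, could be tested only because they were higher with the guide. Klrg1 was at 1 RPKM or more in both guide libraries of Scid.adh.2c2 and not in both controls. This count was thus largely set by the filter. Of 3 NK and innate effector genes 2 rose and 0 fell, against 15 and 1 of 17. Prf1 was among those that rose, and the size of its change depended on the pseudocount (4.21 with 0.1). Of 5 cytokine receptor and signalling genes 4 rose and 0 fell, against 19 and 6 of 33. Il2rb, a receptor chain that IL-2 and IL-15 have in common, was at 1.83 and 1.54 RPKM in controls of Scid.adh.2c2 and 125.5 and 126.1 with the guide (5.86, adjusted p = 1.76e-08). In ILC2/b6 Il2rb had 156.4 and 149.3 and then 148.5 and 149.8 RPKM (-0.03, adjusted p = 0.573), and the difference between the lines was -5.89 (adjusted p = 1.39e-08). Its site, chr15:78325437-78325691 (mm9), held GATA3, Runx1 and Runx3 in ILC2/b6 and GATA3 and Runx3 in Scid.adh.2c2. The guide thus brought Il2rb RNA in Scid.adh.2c2 near the level listed for ILC2/b6.

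Arg1 and Lif, both under 1 RPKM in the controls, passed the filter through the guide libraries alone. Arg1 was at 0.374 and 0.432 RPKM in controls of Scid.adh.2c2 and 14.5 and 13.3 with the guide (3.99, adjusted p = 1.29e-07). Lif had 0.234 and 0.137 and then 2.69 and 2.96 RPKM (2.28, adjusted p = 4.37e-06). Socs2, a feedback inhibitor of cytokine signalling, had 0.887 and 1.12 and then 4.52 and 4.16 RPKM (1.69, adjusted p = 1.51e-05), while in ILC2/b6 its change of 0.11 was not called (adjusted p = 0.141). The differences between the lines were -3.98 for Arg1, -2.04 for Lif and -1.58 for Socs2. Arg1 is also made by macrophages, while the higher myeloid and mast cell marker sum was mostly Cpa3, as given above. The part of other cell types in the Arg1 rise was not tested.

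Antigen receptor signalling genes with ILC2/b6-only sites had 4 higher and 0 lower of 5 tested in Scid.adh.2c2 under each scaling, against 15 and 7 of 28 in the whole list. Txk passed the filter through the guide libraries alone. Zap70, the kinase bound by CD3 chains, had 34.4 and 33.0 RPKM in the controls and 60.0 and 61.5 with the guide (0.84, adjusted p = 3.42e-06). Rasgrp1, a Ras activator in lymphocytes, had 8.99 and 8.64 and then 24.8 and 24.3 RPKM (1.43, adjusted p = 7.66e-07). In ILC2/b6 neither Zap70 (0.01, adjusted p = 0.927) nor Rasgrp1 (0.03, adjusted p = 0.717) was called. Sh2d2a, a T-cell adaptor, fell in ILC2/b6 by 0.24 (adjusted p = 0.0102), a call lost without guide library 2 (adjusted p = 0.0547).

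Of 8 lymphoid transcription factors with ILC2/b6-only sites 0 rose and 4 fell in ILC2/b6, or 0 and 5 with median-centring, against 10 and 9 of 51 in the whole list. In Scid.adh.2c2 0 rose and 3 fell of 3 tested, against 28 and 15 of 47. Notch1, the receptor that drives T-lineage entry, was at 68.5 and 81.9 RPKM in controls of Scid.adh.2c2 and 23.9 and 23.5 with the guide (-1.64, adjusted p = 2.98e-06). In ILC2/b6 Notch1 had 20.4 and 20.0 and then 17.1 and 18.0 RPKM (-0.20, adjusted p = 0.0291), a call lost without control library 1 (adjusted p = 0.0656) or guide library 1 (0.198) or 2 (0.0585), without the expression filter (0.0768) and in the joint fit (0.109). Maf, a factor of type 2 cells, fell in ILC2/b6 from 44.4 and 43.9 to 33.4 and 34.5 RPKM (-0.38, adjusted p = 0.00131), and Klf6 by 0.29 (adjusted p = 0.00911, or 0.0529 without the expression filter). Runx2, a Runx family member, fell by 0.33 from 5.96 and 5.75 to 4.50 and 4.58 RPKM (adjusted p = 0.012, or 0.0587 without the expression filter). Runx1 had 2.73 and 3.09 and then 2.88 and 2.90 RPKM, without a call (-0.01, adjusted p = 0.974).

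Small RNA genes were another difference in membership. MicroRNA genes accounted for 21 (2.03%) ILC2/b6-only and 8 (0.774%) Scid.adh.2c2-only genes of 1034 in the tables, Mir155hg and Mir150 among the ILC2/b6-only ones. Small nucleolar and Cajal body RNA genes accounted for 7 (6.09%) and 1 (0.87%) of 115. Of all 24475 genes, 5.09% had an ILC2/b6-only site and 9.12% a Scid.adh.2c2-only site. MicroRNA genes were thus below the share of all genes in both subgroups. Small nucleolar and Cajal body RNA genes were below it for Scid.adh.2c2-only sites and near it for ILC2/b6-only sites. Most of these small RNA genes were too low to test, with 4 microRNA genes of ILC2/b6-only sites passing the filter in ILC2/b6, of which 0 rose and 1 fell. Noncoding genes made up 7.13% of ILC2/b6-only and 3.93% of Scid.adh.2c2-only sites, against 4.04% and 3.67% of the shared sites.

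At some promoters each line had a member site of its own. Zfp668, a zinc finger gene, led them with scores of 71.4 at -167 bp in Scid.adh.2c2 and 80.2 at 277 bp in ILC2/b6, and the ILC2/b6 peak lay 30 bp from another Bcl11b peak of Scid.adh.2c2. Its RNA was called in neither line (-0.05 and -0.04, adjusted p = 0.666 and 0.796), or lower in Scid.adh.2c2 with quantile normalization (-0.27, adjusted p = 0.0235). Hspa13, an Hsp70-family chaperone, rose in both, by 0.61 in the pro-T-like line (adjusted p = 0.000222) and 0.38 in the ILC2 line (adjusted p = 0.00516). Triobp, an actin-binding protein, rose by 0.44 in Scid.adh.2c2 and had -0.18 in ILC2/b6 (adjusted p = 0.0594), which was called with median-centring (0.0375), with the replicate block (0.0296) and without control library 2 (0.0182). Tgfbr1, a TGF-beta receptor with peaks 84 bp apart, was not called in Scid.adh.2c2 (0.12, adjusted p = 0.236) or ILC2/b6 (0.22, adjusted p = 0.0505). Without control library 2 it was called in both (0.00104 and 0.0464), and with the replicate block in ILC2/b6 (0.0239).

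Some members had the whole set of partners in the line without Bcl11b. All 3 partners were present in the other line at 1.9% of Scid.adh.2c2-only and 0.775% of ILC2/b6-only sites. Tspan32, a tetraspanin of blood cells, led the Scid.adh.2c2-only ones with a score of 98.4 and was at 22.9 and 20.8 RPKM in controls of Scid.adh.2c2 and 41.3 and 41.9 with the guide (0.92, adjusted p = 9.32e-06). In ILC2/b6 Tspan32 had 6.32 and 6.76 and then 6.15 and 6.22 RPKM (-0.07, adjusted p = 0.452), and the difference between the lines was -0.99 (adjusted p = 2.78e-05). Ppp1r15b (52.4) and Mapkapk2 (52.0) followed. D17H6S56E-5 (145.9), Rnf6 (69.2) and Lpxn (34.2) led the ILC2/b6-only ones. D17H6S56E-5 rose in Scid.adh.2c2, from 91.7 and 84.6 to 144.9 and 141.5 RPKM (0.70, adjusted p = 2.08e-05), and not in ILC2/b6 (0.04, adjusted p = 0.52).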

How the data were processed

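The series holds 32 libraries of 50 nt reads in 16 groups of 2: 16 for ChIP-seq, 8 input controls and 8 for RNA-seq. The inputs were of 2 fixation kinds and were not used here. The authors deposited 1 peak list per antibody and line with a score per peak, made per the file headers from both libraries of an antibody with an IDR filter and annotated by HOMER on mm9. The authors deposited gene tables in RPKM, reads per kilobase of transcript and mapped library size, 1 table per line. Bowtie 1.1.1, STAR 2.4.0, RSEM 1.2.25, Trimmomatic, HOMER and edgeR 3.6.8 are named without roles per the submitters' processing notes. The RNA kit is not stated to keep strand, so overlapping antisense genes cannot be told apart.

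Peaks were intersected at 1 bp or more. Genes were those of the nearest start site in the HOMER annotation. The gene of the transcript named in the promoter annotation was another one at 8.77% of Scid.adh.2c2-only and 13.1% of ILC2/b6-only sites. RNA was tested with limma 3.58.1 (R 4.3.3, trend) on log2(RPKM + 0.5), each line alone, for genes with at least 1 RPKM in 2 libraries, with Benjamini-Hochberg adjustment over all of them. Low values were whole multiples of 1 read within 0.1 read, which gave the depth of 34.72 to 43.74 M reads per library. limma was tested on simulated data. The windows came from RefSeq on GRCm38.p6 and were joined by symbol, and no coordinate was converted between builds. Samples were grouped by their titles. The alternatives were other pseudocounts, filters, scalings, overlaps, score limits, a joint fit, a replicate block and each library left out.

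Members and gene lists were chosen with earlier results of these data known. Genes named are the 5 highest scores, the 5 largest rises and falls in the line of the site, up to 25 listed genes per subgroup by score, the 3 sites nearest the rule on each side, the 3 best with all partners in the other line and 5 with sites of both lines. Windows shown were limited to genes with 1 member site after the values were seen, since Dynlt1f has 4 at near-identical copies. Other genes (among them Ifit2, H2-D1, Tnfsf10, Klrg1, Prf1, Maf and Mir155hg) were named after their values were seen.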

Additional observations from a re-analysis of the deposited data

Results flagged for a closer look

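The guide effect differed between the 2 lines for 74 of the 99 named genes with such a test, by limma's test of the difference (ILC2/b6 minus Scid.adh.2c2, log2 scale) with adjusted p-values from 1.39e-08 to 0.0469. Of all 11600 genes tested 45.1% differed, and many of the named genes were picked for a large change in a line. It was below 0, meaning a lower effect in ILC2/b6, for 57 of them and above 0 for 17. The 2 libraries per group do not allow a check for outlying samples.

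Among genes with Scid.adh.2c2-only sites the differences furthest below 0 were those of Cxcr6 (-3.45), Gbp10 (-3.42), Gbp11 (-3.30), Nod1 (-2.82), Sp100 (-2.81), Ifit2 (-2.36) and Fcer1g (-2.33). H2-D1 (-2.07), B2m (-1.82), Rora (-1.77), Cpa3 (-1.51), Mx1 (-1.43), Tnfsf10 (-1.31), Ifi27 (-1.25), Cd28 (-1.23), Trim21 (-1.22), Rel (-1.11), Pim1 (-1.04), Mx2 (-1.01), Themis (-0.96) and Nfatc2 (-0.90) followed. Smaller ones were found for Psmb8 (-0.85), Eif2ak2 (-0.80), Bst2 (-0.78), Il12rb2 (-0.73), Jak1 (-0.63), Cd3g (-0.49) and Rnf2 (-0.41). Differences above 0 were those of Rag1 (2.70), Arsi (2.55), Arpp21 (2.21), Nectin1 (2.18), Tnfrsf8 (2.11), Dtx1 (1.77), Myb (1.57), Gzma (0.69), Lck (0.64), Rpap3 (0.46) and Mapkapk2 (0.18). Of genes with a site in each line, Jak2 had -1.01, Tspan32 -0.99, Triobp -0.62, Rnf6 -0.34, Hspa13 -0.23 and Xpot 0.25. E2f8, just outside the rule, had -0.24.

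Among genes with ILC2/b6-only sites Il2rb (-5.89), Arg1 (-3.98), Txk (-2.74), Prf1 (-2.11) and Lif (-2.04) were furthest below 0. Pparg (-1.82), Zpbp2 (-1.75), Socs2 (-1.58), Rasgrp1 (-1.40), Klrg1 (-1.27), Il18rap (-0.96), Areg (-0.93), Cxcl2 (-0.86) and Zap70 (-0.83) followed. Smaller ones were those of Tff1 (-0.75), Klf6 (-0.74), D17H6S56E-5 (-0.66), Ccr8 (-0.59), Lpxn (-0.58), Capg (-0.55), Runx2 (-0.43), Sh2d2a (-0.35) and Maf (-0.34). Above 0 were Pga5 (1.87), Notch1 (1.44), P2rx1 (1.20), Sh2d1b1 (0.95) and Fndc3a (0.72). Where a gene was near 0 RPKM in a line, as Rag1 was in ILC2/b6 and Areg in Scid.adh.2c2, the difference holds little beyond the change in the other line.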

How the results depend on the processing

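The number of members was 2316 in Scid.adh.2c2 and 1291 in ILC2/b6. Counting a Bcl11b peak of the other line within 1 kb as shared left 1507 in Scid.adh.2c2, keeping the upper 50.0% of scores among members left 744 and 526, and cutting both lists there gave 818 in ILC2/b6. The share with an own-line partner peak (78.2% and 80.7%) was 73.3% and 72.0% when 50.0% of the peak had to be covered, 88.9% and 96.4% within 1 kb, 43.3% and 60.0% with the upper 50.0% of partner peaks, and 84.0% and 85.6% for the upper 50.0% of members. The share of Runx sites also Runx-bound in the other line (81.1% and 21.0%) was 47.1% and 25.5% with Runx lists of equal length, 71.3% and 15.4% for the upper 50.0% of members, and 14.3% in ILC2/b6 with the 1 kb rule. These 3 Runx settings were chosen after seeing the data.

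Higher calls in Scid.adh.2c2 (711) were 469 with median-centring, 280 for the upper 50.0% of scores, 396 with the 1 kb rule, and 466 to 837 with each library left out. Lower calls (512) were 842 with median-centring, 840 with quantile normalization, 173 for the upper 50.0% of scores, and 289 to 625 with each library left out. In ILC2/b6 higher calls (147) were 61 without the expression filter, 83 for the upper 50.0% of scores, and 87 to 189 with each library left out. Lower calls there (111) were 32, 59 and 54 to 122 in the same settings. The 2-fold rises of ILC2/b6-only genes in Scid.adh.2c2 (89) were 46 for the upper 50.0% of scores and 52 among genes at 1 RPKM or more in both control libraries, a setting chosen after seeing the data. The cause of these shifts was not tested, beyond the fewer sites that the stricter rules leave.

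A replicate block gave 698 and 505 calls in Scid.adh.2c2, 199 and 135 in ILC2/b6 and 89 rises of at least 2-fold. The labels give the groups the same numbers without saying what a number shares, and deviations of same-numbered libraries correlated at 0.0373 and 0.106, so the numbers were not taken to pair libraries. Among named genes the block ended the calls of Dynlt1f (adjusted p = 0.0605) and Mapkapk2 (0.0547) in Scid.adh.2c2 and added ILC2/b6 calls for Jak2 (0.0173), Tgfbr1 (0.0239), Lpxn (0.0289), Triobp (0.0296) and Eif2ak2 (0.0382). It changed no other of their calls. A change of sign was counted only where the main or the recomputed value was called. Of 1804 recomputed values of named genes 1678 stayed called or stayed not called, 88 lost and 35 gained the call, and 3 changed sign. Those were Mapkapk2 in Scid.adh.2c2, from 0.12 to -0.02 (adjusted p = 0.751) with median-centring, Dynlt1f in Scid.adh.2c2, from -0.18 to 0.01 (adjusted p = 0.832) under quantile normalization, and Gzmb there, not called at -0.14, which was 0.42 (adjusted p = 0.00479) without control library 1 and -0.69 without control library 2. With 2 libraries per group and 1 pooled list per antibody, small changes and single weak sites are the least certain values.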
